A study of Mus musculus with 48 samples.

Results

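Genes that encode glutathione S-transferases (GST), UDP-glucuronosyltransferases (UGT) and sulfotransferases (SULT) were examined in whole-liver RNA-seq of 48 mice. Members were the protein-coding genes whose symbols start with Ugt1, Ugt2 or Ugt3, with Gst and a class letter from a, k, m, o, p, t and z, or with Sult and a digit. This gave 60 genes of 29221 in the joined count table: 22 GST, 19 SULT and 19 UGT genes. All mice carried PPARg floxed alleles and were adults fed a low fat (LF) or a high fat (HF) diet. After 16 weeks each mouse was given either AAV8-TBG-Cre or, as a control, AAV8-TBG-null. AAV8 is a viral vector, and the TBG promoter restricts Cre recombinase to hepatocytes. After 18 weeks, part of the HF mice were switched to an HF diet with added cholesterol and fructose (HFCF), and all diets ran to 34 weeks. The 4 male groups were HF control, HF labelled knockout, HFCF control and HFCF labelled knockout, with 6 libraries each. The 6 female groups were control and labelled knockout on each of LF, HF and HFCF, with 4 libraries each, and the LF diet was fed to females only. The labels give an animal number for each library, so replicates are separate mice.

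These enzymes carry out the conjugation step of detoxification, often called phase II. UGT enzymes join glucuronic acid from UDP-glucuronic acid to bilirubin, steroids, bile acids and drugs. GST enzymes join glutathione to electrophiles, and SULT enzymes transfer sulfate from the donor PAPS to steroids, thyroid hormones and phenols. In mouse liver many of these genes are known to follow sex-specific growth hormone patterns, and the alpha and mu GST genes are classical targets of the stress-responsive factor NRF2.

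The members lie largely in gene clusters, and the sequences shown here belong to the clusters that the results turn on. The 7 mu-class GST genes sit on GRCm38 chromosome 3, from Gstm5 (start 107895821) to Gstm4 (end 108044894). Gsta1 is on chromosome 9 (78230656 to 78242684, plus strand). Sult2a1 to Sult2a8 lie on chromosome 7, from Sult2a5 (start 13623967) to Sult2a7 (end 14494230), and Sult3a1 is on chromosome 10 (33857721 to 33879532, plus strand). A promoter window was found for 52 of the 60 members in RefSeq's GRCm38.p6 annotation. None was found for Sult2a1, Sult2a2, Sult2a7, Sult4a1, Gsta4, Gstt2, Ugt1a6b and Ugt3a2. The 5′ flanking stretches below are each read 5′ to 3′ on the gene's own strand and end before its first exon. They belong to some of the GST genes called higher on HFCF in part of the comparisons (Gstm1, Gstm2, Gstm3 and Gsta1). The others belong to a pair of female-restricted SULT genes. The stretches cover chr3:108017974-108018223 for Gstm1, chr3:107986454-107986670 for Gstm2 and chr3:107969284-107969424 for Gstm3, all on the minus strand. For Gsta1 the stretch is chr9:78230419-78230655 (plus strand), for Sult3a1 chr10:33857472-33857720 (plus strand) and for Sult2a3 chr7:14123049-14123298 (minus strand). Capitals mark a match to the STAT5 motif TTCNNNGAA.
Gstm1: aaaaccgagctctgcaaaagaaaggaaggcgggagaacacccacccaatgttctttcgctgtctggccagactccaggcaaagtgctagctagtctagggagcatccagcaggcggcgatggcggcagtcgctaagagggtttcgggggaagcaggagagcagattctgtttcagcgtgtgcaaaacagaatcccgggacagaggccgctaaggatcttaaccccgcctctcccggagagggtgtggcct
Gstm2: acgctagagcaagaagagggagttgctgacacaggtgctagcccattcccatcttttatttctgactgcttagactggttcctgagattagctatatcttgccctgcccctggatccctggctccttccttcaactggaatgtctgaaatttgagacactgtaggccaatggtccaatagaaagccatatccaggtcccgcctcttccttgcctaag
Gstm3: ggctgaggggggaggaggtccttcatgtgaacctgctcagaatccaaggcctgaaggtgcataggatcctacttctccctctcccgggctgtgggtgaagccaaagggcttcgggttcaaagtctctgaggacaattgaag
Gsta1: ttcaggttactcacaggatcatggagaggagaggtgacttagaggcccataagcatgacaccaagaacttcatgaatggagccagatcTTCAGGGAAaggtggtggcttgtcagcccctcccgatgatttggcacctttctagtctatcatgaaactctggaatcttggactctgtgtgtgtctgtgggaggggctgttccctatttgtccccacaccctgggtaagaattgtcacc
Sult3a1: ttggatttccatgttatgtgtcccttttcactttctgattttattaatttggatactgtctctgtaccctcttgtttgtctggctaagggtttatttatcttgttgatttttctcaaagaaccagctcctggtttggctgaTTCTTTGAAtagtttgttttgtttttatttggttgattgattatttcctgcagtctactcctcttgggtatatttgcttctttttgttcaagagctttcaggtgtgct
Sult2a3: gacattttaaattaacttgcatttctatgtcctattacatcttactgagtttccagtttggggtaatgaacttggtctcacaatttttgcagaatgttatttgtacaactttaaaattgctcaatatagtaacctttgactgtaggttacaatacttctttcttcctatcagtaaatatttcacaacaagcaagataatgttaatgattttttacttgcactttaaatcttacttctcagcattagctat

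In all, 3 motifs were searched on both strands of the 250 bases upstream of the start site in each window. Sites farther away were not searched. The antioxidant response element core TGACNNNGC, to which NRF2 binds, was in 10.16% of 32851 windows and in 3 of 63 windows of members, those of Gsta3, Gstm5 and Gstm7. TTCNNNGAA was in 7.02% of all windows and in 4 of 63 windows of members (Gsta1, Gstm6, Sult3a1 and Ugt1a6a). The DR1 element, the classical PPAR site, was in 0.03348% of all windows and in 0 of 63. A match is a description of letters in a window and does not show binding. Identity was computed on the 250 upstream bases of the 6 genes with printed stretches, and in some genes these bases reach into an exon. Over the alignment, gaps included, pairwise identity ran from 40% (Gstm1 and Sult2a3) to 51.09% (Gstm2 and Gsta1). The upstream bases of Gstm1 and Gstm2 were identical at 46.4% of positions.

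Library depth ran from 15338239 to 22072884 reads on genes. Levels are counts per 1000000 normalised counts (CPM). Pparg was not lower in any labelled-knockout group. In HFCF males its mean was 32.3 ± 5.47 CPM (SD, n = 6) in controls and 56.3 ± 6.18 (n = 6) in labelled knockouts. Its counts cover the whole gene, so a deletion of part of it is not checked by them, and the groups are called labelled knockouts throughout. The 6 hepatocyte markers summed to at least 37143 CPM in every library and the adipocyte markers Adipoq and Plin1 together stayed at or below 0.134 CPM in every library. Female HFCF labelled-knockout replicate 1 stood apart from its group, with a median absolute log2 distance of 0.355 where the median library had 0.14. Male HFCF control replicate 1 (0.232) and female HF control replicate 1 (0.235) were also far from theirs. Of all 48 libraries, female LF labelled-knockout replicate 4 was second farthest (0.247), and without it 0 members were called by edgeR in either comparison that uses it, as with it. For part of the named members, values that moved by more than 1.5 times, and calls that changed, without one of these libraries are given beside the result. Not all members whose calls changed are named. In whole liver, fewer cells of a type and less RNA per cell cannot be told apart.

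Reads of near-identical copies limit some members. In the annotated transcripts, 90.5% of the 50-base words of Gsta1 also occur in another gene, mostly Gm3776, Gsta2 and Gm10639. The share was 49.8% for Gsta2, 62.1% for Sult2a2, 33.2% for Sult2a1, 34.5% for Sult2a5, 33.7% for Gstp1, 28.8% for Gstm3, 18.9% for Gstm1 and 41.7% for Ugt2b5. The UGT1A genes have their last exons in common, and 52.1% to 80.2% of their words are shared. How reads shared between genes were assigned is not given in the sources used here, so values of single genes in these sets are uncertain.

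Of the 60 members, 50 reached a mean of 1 CPM in at least 1 group. The other 10 (5 SULT, 3 UGT and 2 GST genes) stayed under 1 CPM in every group. Levels of different genes were compared per kilobase of gene length, as the mean of the 10 group means. Gstm1, a mu-class enzyme with broad substrates, led the GST family with 1020 CPM per kb, followed by Gstp1 (pi class) with 414 and Gsta3 (alpha class) with 296. Ugt2b5 (219 CPM per kb), Ugt2b36 (213) and Ugt3a2 (112) led the UGT family. The UGT2B enzymes handle steroids and bile acids, and UGT3A enzymes use other sugar donors. Sult1a1, the phenol sulfotransferase, led the SULT family with 239 CPM per kb. The hydroxysteroid sulfotransferases Sult2a2 (174) and Sult2a1 (97.4) came next, although their level in every male group was below 0.05 CPM on average.

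Summed over members, SULT group means ran from 413 ± 138 CPM (SD, n = 6) in male HFCF controls to 1843 ± 272 (n = 4) in female HF labelled knockouts. Female LF controls held 1586 ± 187 CPM (SD, n = 4) of SULT transcripts, female HFCF controls 528 ± 151 (n = 4), male HF controls 636 ± 110 (n = 6) and male HF labelled knockouts 1175 ± 180 (n = 6). All 6 HF labelled-knockout males (920 to 1443 CPM) lay above all 6 HF control males (545 to 811). Much of that difference lay in 1 gene, Sult2a8, which held 449 to 888 CPM in these labelled knockouts and 166 to 352 in these controls. UGT sums ran from 1858 ± 241 in female HFCF controls to 3044 ± 123.1 in male HF labelled knockouts. GST sums ran from 4076 ± 726 in female LF controls to 6003 ± 793 in male HF labelled knockouts.

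**Figure D1:**
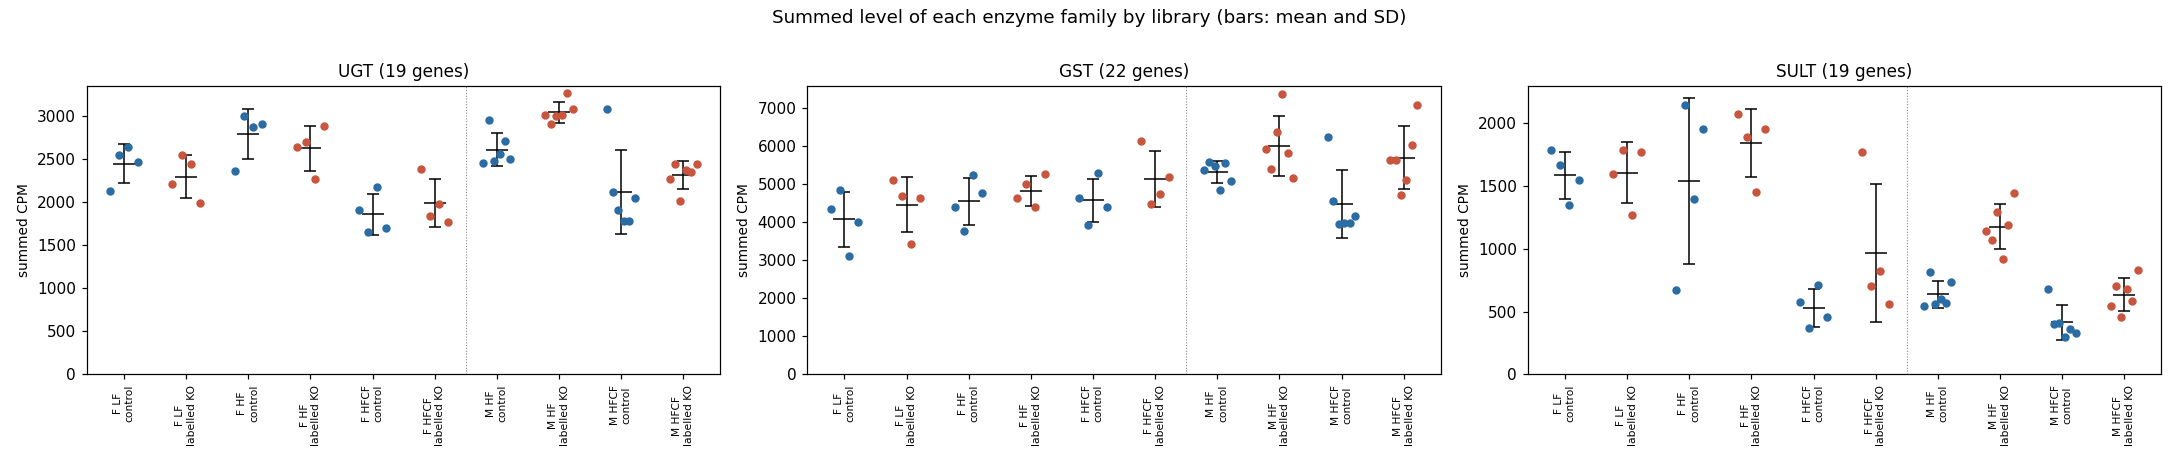
Summed CPM (vertical axis) of the UGT, GST and SULT genes in each library (points), by group, with controls in blue, labelled knockouts in red, and the mean and SD as black bars; F and M are females and males. SULT sums average 1586 CPM in female LF controls and 528 in female HFCF controls, and 1 female HF control library (672 CPM) lies far below the other 3 of its group.

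The addition of cholesterol and fructose to the HF diet was compared within each sex and genotype. Called UGT and SULT genes were nearly all lower on HFCF, and 4 mu-class GST genes were higher in 3 of the 4 comparisons. A gene is called where the Benjamini-Hochberg adjusted p of edgeR's quasi-likelihood test is under 0.05, adjusted over all genes tested. A gene with few reads in 1 group can pass edgeR's filter on low counts through the other group alone. Its direction is then largely fixed by the filter. On HFCF against HF this applies to Gsta1 in females of both genotypes, Sult4a1 and Sult5a1 in control females, and Sult1e1 in control males. In control females 31 of 49 tested members were called, 5 higher and 26 lower, against 30.8% of all 14701 genes (16.9% higher, 13.8% lower). The median log2 fold change was -0.51 over the members and -0.02 over all genes. In labelled-knockout females 14 of 48 were called (6 higher, 8 lower), against 14.5% of all genes (8.44% higher, 6.01% lower). In control males 15 of 44 were called (1 higher, 14 lower), against 22.3% (13% higher, 9.31% lower), and in labelled-knockout males 28 of 44 (7 higher, 21 lower), against 41.7% (21.6% higher, 20% lower). Groups without overlap were common here. In control and labelled-knockout females they made up 23 of 49 and 10 of 48 members, against 29.6% and 19.4% of all genes. In control and labelled-knockout males they made up 3 of 44 and 17 of 44 members, against 4.47% and 18.8%. The diet, genotype and sex comparisons draw on the same libraries, so they are not independent of each other.

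**Figure D2:**
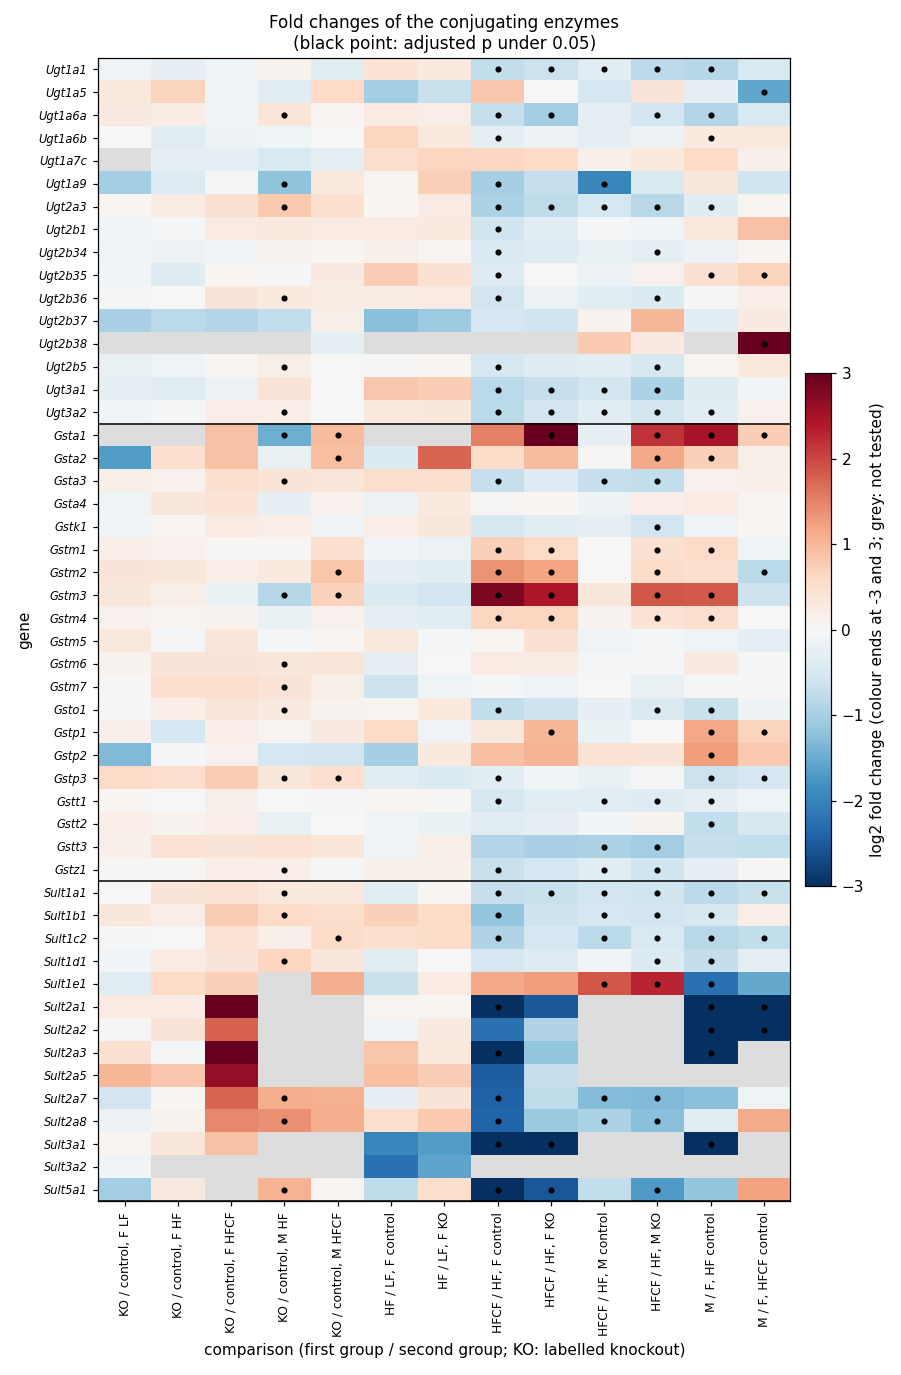
Log2 fold change (colour) of the 50 members with a mean of at least 1 CPM in some group (rows, by family and class) in 13 comparisons (columns, first group over second); black points mark adjusted p under 0.05, grey cells were not tested, and colours end at -3 and 3. The 4 HFCF over HF columns are blue in most UGT and SULT rows, while Gstm1 to Gstm4 are red with black points in all but the male controls.

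Among UGT genes, 12 of 15 tested were lower on HFCF in control females and 0 were higher. In labelled-knockout females 5 of 15 were lower, in control males 5 of 16 and in labelled-knockout males 8 of 16, with 0 higher in each. Ugt2a3, a relative of the UGT2B genes, was lower in all 4 comparisons. In control females it measured 169, 219, 232 and 237 CPM on HF and 103, 93.4, 158 and 78.7 on HFCF, without overlap (log2 fold change -0.96, SE 0.21, adjusted p 0.0107). In labelled-knockout males the lowest, median and highest values were 214, 304 and 340 CPM on HF and 136, 160 and 186 on HFCF. Those groups did not overlap either (log2 fold change -0.84, SE 0.11). Ugt1a1, which conjugates bilirubin, was also lower in all 4, with log2 fold changes from -0.35 (control males) to -0.78 (labelled-knockout males). Ugt3a1 (-0.56 to -0.94) and Ugt3a2 (-0.35 to -0.80) were called in all 4 as well. In labelled-knockout females the calls of these 4 genes each held in 2 of 8 fits with a library left out, those without HF replicate 3 or HFCF replicate 1. In control females the Ugt3a1 call was lost without HF replicate 2 or 4 or HFCF replicate 1, 2 or 5. In control males the Ugt1a1 call was lost without HF replicate 2, 4 or 5 or any HFCF replicate from 2 to 6, and the Ugt3a2 call without any of those or HF replicate 1. Ugt1a6a, another phenol-conjugating UGT1A enzyme, was lower in both female genotypes and in labelled-knockout males, with -1.03 (SE 0.14) in labelled-knockout females.

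Ugt1a9, a phenol-conjugating enzyme, differed most among the UGT genes of control males. Its lowest, median and highest values were 23.0, 29.3 and 43.1 CPM on HF and 3.79, 5.83 and 17.7 on HFCF. No HFCF library reached the lowest HF library (log2 fold change -1.96, SE 0.30, adjusted p 0.00132), and the highest HFCF value was that of replicate 1. Control females showed a log2 fold change of -1.001 (SE 0.15) for the same gene. Ugt2b5 and Ugt2b36, the leading UGT genes by level, were lower in control females (-0.52 and -0.55) and labelled-knockout males (-0.48 and -0.42). In control males Ugt2b36 had an adjusted p of 0.0502 and Ugt2b5 of 0.0908. There HFCF replicate 1, which stood apart, held 522 CPM of Ugt2b36 and 565 of Ugt2b5. The other HFCF libraries held at most 389 and 377 CPM, below the lowest HF values of 428 and 436.

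The mu-class GST genes went the other way. Of the 7, Gstm1, Gstm2, Gstm3 and Gstm4 were higher on HFCF in control females, labelled-knockout females and labelled-knockout males, and 0 of 7 were called in control males, where edgeR gave 0 at an unadjusted p under 0.05 and DESeq2's Wald test called 0. Gstm3 in control females measured 92.2, 12.6, 45.1 and 25.9 CPM on HF and 294, 296, 225 and 401 on HFCF. Each HFCF library exceeded each HF library (log2 fold change 2.80, SE 0.52, adjusted p 0.00719), and the value was 3.47 without HF replicate 1, the highest of its group. In labelled-knockout females it measured 43.7, 48.1, 52.7 and 51.9 CPM on HF and 122, 270, 224 and 430 on HFCF. This was again a separation without overlap (log2 fold change 2.42, SE 0.32).

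In males the Gstm3 values depended on genotype. In labelled knockouts the lowest, median and highest were 47.2, 78.6 and 157 CPM on HF and 214, 332 and 413 on HFCF, with no overlap (log2 fold change 1.87, SE 0.24, adjusted p 3.1e-05). In controls they were 89.5, 164 and 213 on HF and 134, 194 and 242 on HFCF, and the groups overlapped (log2 fold change 0.34, SE 0.18, adjusted p 0.192). Gstm2 followed the same order, with log2 fold changes of 1.34 (SE 0.24) in control females, 1.18 (SE 0.14) in labelled-knockout females, 0.55 (SE 0.15) in labelled-knockout males and 0.02 (SE 0.16) in control males. Gstm1 had 0.72, 0.60, 0.45 and 0.02 in the same order. The Gstm1 call ended without any 1 of HF replicates 1 and 2 or HFCF replicate 4 in labelled-knockout females. In labelled-knockout males it held in 3 of 12 such fits, those without HF replicate 4 or without HFCF replicate 3 or 4. The Gstm4 call in labelled-knockout males was lost without HF replicate 3, and in labelled-knockout females without HF replicate 1 or HFCF replicate 4.

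The difference between the sexes in this diet effect was tested in controls. The male minus female log2 difference was -2.46 (SE 0.49) for Gstm3, -1.31 (SE 0.29) for Gstm2 and -0.69 (SE 0.22) for Gstm1. Their adjusted p were 0.102, 0.127 and 0.197, so 0 of 51 members were called by edgeR's quasi-likelihood test, against 0.00646% of all genes. At an unadjusted p under 0.05 there were 14 members, DESeq2's Wald test called 2, and without female HF control replicate 1 edgeR called 8, with -3.12 for Gstm3 and -2.88 for Gsta1. Males and females also came from separate cohorts of animal numbers, so sex and cohort cannot be told apart.

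Alpha-class GST genes split. Gsta1, an alpha enzyme with low basal expression, measured 0.269, 0.265, 1.39 and 0.28 CPM in HF labelled-knockout females and 5.59, 9.89, 5.49 and 15.8 on HFCF. All 4 HFCF values lay above all 4 HF values (log2 fold change 3.96, SE 0.58, adjusted p 0.00389, and 5.07 without HF replicate 3). With 5, 4, 29 and 4 reads on HF, the gene passed the low-count filter through the HFCF group and could hardly be called lower. In control females the Gsta1 value was 1.52 (SE 0.66, adjusted p 0.103 by edgeR), and 2.66 (adjusted p 0.00166) without HF replicate 1. In labelled-knockout males it was 1.31, 2.44 and 10.6 CPM (lowest, median, highest) on HF and 11.9, 15.2 and 22.1 on HFCF, also without overlap (log2 fold change 2.17, SE 0.39; 2.87 without HF replicate 4). Gsta2 was higher in labelled-knockout males (1.14, SE 0.15). Gsta3, the abundant liver alpha enzyme, was lower in control females (-0.70, SE 0.22), control males (-0.68, SE 0.12) and labelled-knockout males (-0.73, SE 0.10). Gstz1, which also serves tyrosine breakdown, was lower in the same 3 comparisons, from -0.33 to -0.66. In control females the Gsta3 call was lost without HF replicate 3 or 4 or HFCF replicate 1, 2 or 5, and the Gstz1 call without HF replicate 3 or the same HFCF replicates. In control males the Gstz1 call was lost without HF replicate 2 or HFCF replicate 2, 4, 5 or 6. Gstp1 was higher in labelled-knockout females (1.003, SE 0.16), and the theta-class Gstt3 was lower in control males (-0.94) and labelled-knockout males (-1.04).

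**Figure D3:**
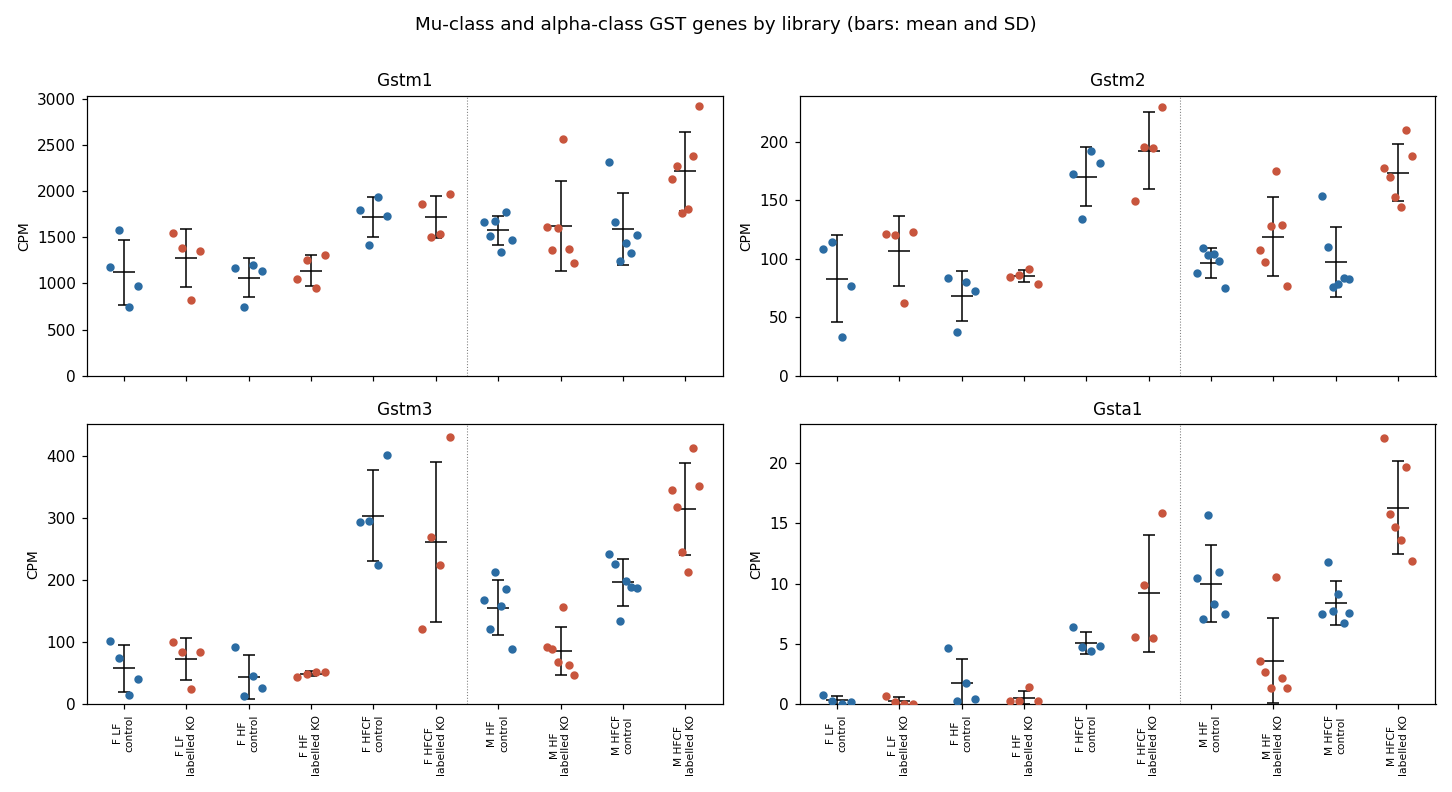
CPM (vertical axes) of Gstm1, Gstm2, Gstm3 and Gsta1 in each library (points) of the 10 groups, with controls in blue, labelled knockouts in red, and the mean and SD as black bars. Gstm3 lies between 12.6 and 92.2 CPM in female HF controls and between 225 and 401 in female HFCF controls, while male control values on the 2 diets overlap.

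SULT genes had the lowest family median in control females on HFCF. It was -2.31 for SULT, -0.55 for UGT and 0.05 for GST genes. Of 14 SULT genes tested 9 were lower and 1 was higher, Sult4a1. Sult4a1 had 0.832 ± 0.205 CPM on HFCF and 0.0877 ± 0.137 on HF (log2 fold change 3.11, and 4.94 without HF replicate 1). With 5, 0, 0 and 1 reads on HF, it passed the low-count filter through the HFCF group and could only be called higher. Sult2a1, a hydroxysteroid and bile acid sulfotransferase, measured 1.16, 513, 79.6 and 303 CPM on HF and 10.9, 1.61, 6.21 and 2.83 on HFCF. The groups overlapped through HF replicate 1, whose 1.16 CPM lay below all 4 HFCF libraries (log2 fold change -5.35, SE 1.32, adjusted p 0.0165). The value ran from -5.94 without HFCF replicate 1 to -4.54 without HF replicate 2, and the call was lost without HFCF replicate 2 or 5. Sult2a3 behaved alike (73.5 ± 70.9 CPM on HF and 3.85 ± 2.98 on HFCF; log2 fold change -4.22, SE 1.06), reached -3.47 without HF replicate 2, and lost its call without HFCF replicate 5. For Sult2a8, known for sulfating bile acids, the HF values were 143, 357, 422 and 351 CPM and the HFCF values 32.7, 37.3, 131 and 35.5. These did not overlap (log2 fold change -2.40, SE 0.51, adjusted p 0.0105; -3.17 without HFCF replicate 3). In labelled-knockout females 0 SULT2 genes were called by edgeR, with 2 at an unadjusted p under 0.05 and 0 called by DESeq2's Wald test. Without HFCF replicate 1 the fit held 7 SULT2 genes (median -2.39), and the 6 given here passed, Sult2a8 with -1.61 against -1.10 with it. Sult2a1 (-4.66), Sult2a2 (-1.64), Sult2a3 (-2.84), Sult2a5 (-1.72) and Sult2a7 (-2.39) passed then, against -2.52, -0.90, -1.19, -0.69 and -0.76 with it. In males Sult2a8 was lower on HFCF in labelled knockouts (-1.25, SE 0.19) and controls (-0.95, SE 0.32), the latter call holding in 3 of 12 fits, those without HF replicate 3 or 5 or HFCF replicate 1.

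Sult3a1, an amine sulfotransferase, was lowest on HFCF among the female diets. Its control libraries held 3.34, 70.8, 70.2 and 99.8 CPM on LF, 1.56, 10.0, 12.9 and 38.8 on HF, and 0.798, 0.403, 2.80 and 0.534 on HFCF. LF replicate 1 and HF replicate 1 were low for their groups, and neighbouring diets overlapped. The HFCF against HF step passed the test in control females (log2 fold change -3.75, SE 0.91, adjusted p 0.0156), and the HF against LF step did not (-1.95, SE 0.91, adjusted p 0.327). The first value was -4.74 without HFCF replicate 3 and -2.81 without HF replicate 4. In labelled-knockout females the HFCF against HF value was -3.29 (SE 0.98, adjusted p 0.0481), -4.14 without HFCF replicate 1 and -1.97 without HF replicate 4. That call held in only 2 of 8 fits with a library left out, those without HF replicate 3 or HFCF replicate 1.

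Sult5a1, a family member of little-known substrate, was lower on HFCF in control females (3.80 ± 2.40 to 0.432 ± 0.149 CPM; log2 fold change -3.08), labelled-knockout females (-2.54) and labelled-knockout males (-1.69), without overlap in each. In control males it had -0.73 (adjusted p 0.344 by edgeR), and -1.37 (adjusted p 0.0246) without HFCF replicate 1. Sult1e1, the estrogen sulfotransferase, was the only SULT gene called higher in males. Its lowest, median and highest values in control males were 0.230, 0.407 and 1.17 CPM on HF and 0.921, 1.65 and 3.17 on HFCF, with overlap (log2 fold change 1.86, SE 0.42, adjusted p 0.00681). In labelled-knockout males they were 0.259, 0.595 and 2.03 and 2.05, 4.03 and 5.29, without overlap (2.29, SE 0.39). Sult1a1 was lower in all 4 comparisons, with log2 fold changes from -0.59 to -0.69. In labelled-knockout females that call held without HFCF replicate 1 and was lost without any other library. Control females, control males and labelled-knockout males had lower Sult1c2 and Sult1b1, and the Sult1b1 call in control males was lost without HF replicate 2.

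Counts of called members moved with single libraries. In labelled-knockout females 33 members were called without HFCF replicate 1, the library that stood apart, and 6 to 8 without HF replicate 1, 2 or 4 or HFCF replicate 2, 3 or 4. In control males 27 were called without HFCF replicate 1, and 8 or 9 without HF replicate 2 or HFCF replicate 4, 5 or 6. In control females 20 and 19 were called without HFCF replicates 1 and 5. Markers of other cell types moved with the diet. All 5 cholangiocyte markers were higher on HFCF in each of the 4 comparisons, and of 5 recruited-macrophage markers 5, 4, 5 and 5 were higher in control females, labelled-knockout females, control males and labelled-knockout males. In that order, 1, 5, 4 and 5 of 6 stellate-cell markers and 4, 1, 0 and 1 of 5 endothelial markers were higher, and 4, 0, 3 and 5 of 6 hepatocyte markers were lower. All 3 red blood cell markers were lower in labelled-knockout males. In control females the summed hepatocyte markers ran from 87122 to 103710 CPM on HF and from 52118 to 64613 on HFCF, and in control males from 59000 to 82471 and from 37143 to 60025. The cholangiocyte sum of control females ran from 43.5 to 276 CPM on HF and from 300.4 to 548 on HFCF. The part of these shifts in the member values was not tested.

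The labelled knockout was compared with control within each sex and diet. In HF males 20 of 42 tested members were called, 17 higher and 3 lower, against 18.5% of all 14041 genes (8.57% higher, 9.88% lower). The median log2 fold change was 0.19 over the members and 0.00 over all genes. Of SULT genes 6 of 7 tested were higher and 0 lower, with 6 of 20 GST genes higher and 2 lower, and 5 of 15 UGT genes higher and 1 lower. In 6 members the groups did not overlap, 5 of them higher in all labelled knockouts (Sult2a8, Sult1d1, Sult1b1, Ugt2a3 and Gstm7) and 1 lower (Ugt1a9). Of all genes tested, 7.88% had groups that did not overlap.

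Sult2a8 had lowest, median and highest values of 166, 224 and 352 CPM in HF control males and 449, 647 and 888 in labelled knockouts. Every labelled knockout exceeded every control (log2 fold change 1.37, SE 0.19, adjusted p 0.000158). The values for Ugt2a3 were 150, 166 and 193 CPM in controls and 214, 304 and 340 in labelled knockouts (log2 fold change 0.78, SE 0.10, adjusted p 8.8e-05). For Sult1d1, which sulfates catecholamines and other small molecules, they were 82.7, 91.3 and 121 CPM and 124, 152 and 182 (log2 fold change 0.65, SE 0.11). Sult1b1, a thyroid hormone sulfotransferase, rose from 21.997 ± 3.09 to 32.9 ± 5.34 CPM (0.57, SE 0.11) and Gstm7 from 45.5 ± 3.36 to 59.5 ± 2.56 (0.38, SE 0.06). Sult2a7 (1.08, SE 0.29) and Sult5a1 (1.04, SE 0.32) were called at low levels, with overlapping groups and means of 2.86 and 3.48 CPM in labelled knockouts. The other called members rose by smaller amounts: Sult1a1, Gsta3, Gstz1, Gsto1, Gstm6, Gstp3, Ugt1a6a, Ugt2b5, Ugt2b36 and Ugt3a2 had log2 fold changes from 0.18 to 0.40. The Sult5a1 call was lost without any 1 of control replicates 1, 5 and 6 and labelled-knockout replicates 3, 5 and 6.

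The 3 members that fell were Gsta1, Ugt1a9 and Gstm3. Ugt1a9 had 23.0, 29.3 and 43.1 CPM in controls and 5.97, 14.1 and 20.9 in labelled knockouts, with every labelled knockout below every control (log2 fold change -1.20, SE 0.23, adjusted p 0.00175). Gsta1 had 7.07, 9.40 and 15.6 CPM in controls and 1.31, 2.44 and 10.6 in labelled knockouts. Here 5 of 6 labelled knockouts lay below all controls and replicate 4 lay among them (log2 fold change -1.47, SE 0.40, adjusted p 0.0184; -2.17 without replicate 4). Gstm3 had 89.5, 164 and 213 CPM in controls and 47.2, 78.6 and 157 in labelled knockouts, with overlap (-0.86, SE 0.25, adjusted p 0.0244). The Gstm3 call was lost without control replicate 3 or 5 or labelled-knockout replicate 3 or 5. The count of called members was 13 without any 1 of control replicates 1, 5 and 6 and labelled-knockout replicate 5.

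**Figure D4:**
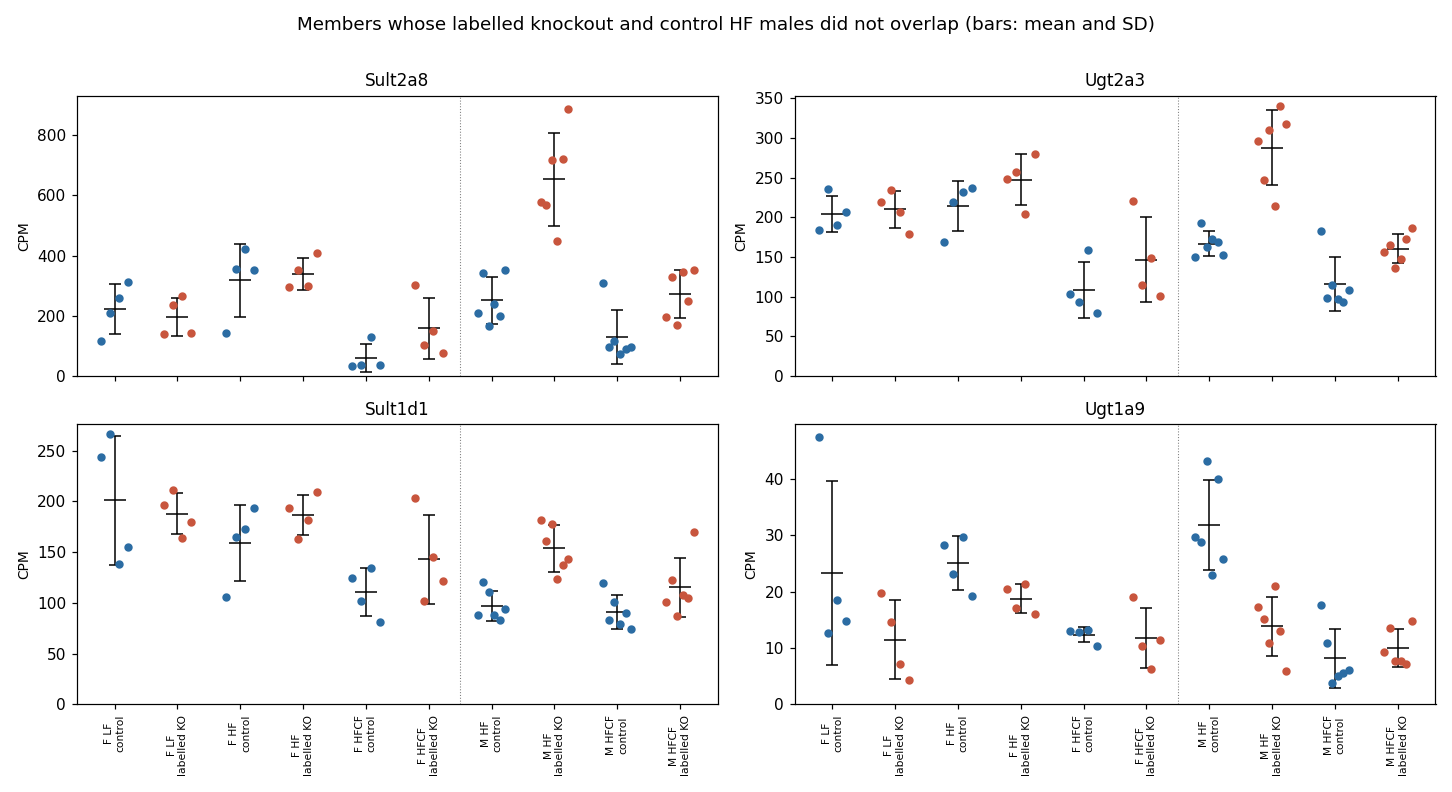
CPM (vertical axes) of Sult2a8, Ugt2a3, Sult1d1 and Ugt1a9 in each library (points) of the 10 groups, with controls in blue, labelled knockouts in red, and the mean and SD as black bars. In HF males the labelled knockouts lie above all controls for Sult2a8, Ugt2a3 and Sult1d1 and below them for Ugt1a9, where the highest labelled knockout has 20.9 CPM and the lowest control 23.0.

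Markers moved with this comparison too. All 6 hepatocyte markers were higher in HF labelled-knockout males, with sums from 86558 to 101520 CPM against 59000 to 82471 in controls. Of 5 recruited-macrophage markers 4 were lower (sums of 21.0 to 51.4 against 45.5 to 72.8 CPM), of 6 stellate-cell markers 4 were lower, 1 of 5 cholangiocyte markers was lower, and all 3 red blood cell markers were higher. Periportal hepatocyte markers were higher in 4 of 5 and pericentral markers in 1 of 5. The part of these shifts in the member values was not tested.

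In HFCF males 6 of 44 tested members were called, all higher in labelled knockouts, against 2.21% of all 14685 genes (0.933% higher, 1.27% lower). The median log2 fold change was 0.24 over the members and -0.01 over all genes. The called members were GST genes with 1 exception. Gsta1 had lowest, median and highest values of 6.72, 7.68 and 11.7 CPM in controls and 11.9, 15.2 and 22.1 in labelled knockouts (log2 fold change 0.96, SE 0.16, adjusted p 0.00541). Gsta2 had 13.7, 16.6 and 28.1 CPM and 28.7, 34.1 and 39.8 (0.91, SE 0.15, adjusted p 0.00376). Neither gene's groups overlapped, and for Gsta2 the highest control was replicate 1. Groups did not overlap in 5 of 44 members, against 2.35% of all genes. Gstm2 (97.4 ± 30.1 to 174 ± 24 CPM; 0.84, SE 0.16) and Gstm3 (196 ± 37.5 to 314 ± 73.5; 0.69, SE 0.16) were called with overlapping groups. Gstp3, a pi-class member, rose from 21.6 ± 1.67 to 30.4 ± 3.94 CPM (0.50, SE 0.09). The exception was Sult1c2, from 5.97 ± 0.926 to 8.73 ± 0.604 CPM (0.55, SE 0.11). The Gstm3 call held in 3 of 12 fits with a library left out, those without control replicate 1 or labelled-knockout replicate 3 or 4. Without control replicate 1, which stood apart, 18 members were called.

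Sult2a8 and Ugt2a3, called in HF males, had log2 fold changes of 1.09 (SE 0.32, adjusted p 0.102) and 0.48 (SE 0.14, adjusted p 0.109) in HFCF males. Without HFCF control replicate 1, which held 310 CPM of Sult2a8 and 182 of Ugt2a3, both passed edgeR's test, with 1.56 (adjusted p 0.000165) and 0.66 (adjusted p 0.000219). There the median log2 fold change was 0.26 over the 6 hepatocyte markers and -0.25 over the 5 recruited-macrophage markers, with hepatocyte sums of 37143 to 60025 CPM in controls and 52304 to 62590 in labelled knockouts.

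The labelled-knockout difference on HFCF was then compared with that on HF in males. It was more positive on HFCF in 3 of 44 members and more negative in 0, against 1.56% of all genes (0.987% more positive, 0.57% more negative). These were Gsta1 (difference of log2 fold changes 2.41, SE 0.46, adjusted p 0.00749), Gstm3 (1.53, SE 0.32, adjusted p 0.0164) and Gsta2 (1.11, SE 0.23, adjusted p 0.0164). Mean Gsta1 was 9.99 CPM in HF controls, 3.62 in HF labelled knockouts, 8.41 in HFCF controls and 16.3 in HFCF labelled knockouts. Mean Gstm3 in the same order was 156, 86.2, 196 and 314 CPM. Both were lower than control in the labelled knockouts on HF and higher on HFCF. The Gsta1 difference was 3.11 without HF labelled-knockout replicate 4, and 5 members were called without HFCF control replicate 1.

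In females no member was called in the labelled-knockout comparisons. On LF, 0 of 48 passed edgeR's test, 4 had an unadjusted p under 0.05 and DESeq2's Wald test called 0, and 0% of all genes were called. On HF the counts were 0 of 48, 7 and 1, again with 0% of all genes called. The Wald call was Gstp3, for which all 4 labelled knockouts lay above all 4 controls (38.8 ± 3.47 and 54.5 ± 7.94 CPM). Its edgeR log2 fold change was 0.51 (SE 0.12, adjusted p 0.501). Of all genes tested on HF, 5.44% had groups that did not overlap. On HFCF 0 of 48 passed edgeR's test, 13 had an unadjusted p under 0.05 and the Wald test called 0. Of all genes 0.0534% were called there (0.00668% higher, 0.0467% lower). The median was 0.31 over the members and 0.00 over all genes.

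The SULT2 genes had the widest female values on HFCF. Sult2a1 measured 10.9, 1.61, 6.21 and 2.83 CPM in controls and 155, 16.6, 11.3 and 2.67 in labelled knockouts. Replicate 1 of the labelled knockouts was the highest and the groups overlapped (log2 fold change 3.13, SE 1.06, adjusted p 0.548). Sult2a2 measured 77.2, 5.59, 78.0 and 41.5 CPM in controls and 377, 118, 125 and 54.7 in labelled knockouts (1.77, SE 0.71, adjusted p 0.548). The median over the 6 tested SULT2 genes was 2.20. Without labelled-knockout replicate 1 the log2 fold change was 0.93 for Sult2a1 and 0.98 for Sult2a2, the SULT2 median was 0.96, and the count of called members was again 0 by edgeR. The difference between the labelled-knockout effects of males and females was called in 0 of 50 members on HF (8 at an unadjusted p under 0.05, 0 by the Wald test) and in 0 of 51 on HFCF (2 and 0), where 0% of all genes were called on either diet. On HF the count was 3 without female HF control replicate 1.

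The HF diet against the LF diet, available in females, gave 0 of 48 called members in controls, against 0.696% of all genes (0.443% higher, 0.253% lower), and 0 of 49 in labelled knockouts, against 0.155% (0.0704% higher, 0.0844% lower). At an unadjusted p under 0.05 there were 11 and 14 members, and DESeq2's Wald test called 7 and 3. The Wald calls in controls were Sult1b1, Ugt2b37, Ugt3a1, Sult1c2, Ugt1a6b, Gstm7 and Ugt2b35. Sult1b1 came nearest to the edgeR threshold (log2 fold change 0.71, SE 0.14, adjusted p 0.0553). It had 18.6 ± 1.97 CPM on LF and 30.6 ± 6.11 on HF, with no overlap between the groups. Of all genes tested in controls, 10.0% had groups that did not overlap. Without HF control replicate 1 edgeR called 2 members and without LF control replicate 1 it called 1. In labelled knockouts 1 was called without LF replicate 1 and 1 without LF replicate 3.

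Males and females were compared as controls of the same diet. On HF, 26 of 47 tested members were called, 9 higher in males and 17 lower, against 18.1% of all 14492 genes (8.52% higher, 9.58% lower). SULT genes were lower in males in 9 of 12 tests and higher in 0. Of the 9, Sult2a1, Sult2a2, Sult2a3 and Sult3a1 had 4, 4, 0 and 1 reads over the male group. They passed the low-count filter through the females and could only be called lower in males. Sult1e1 also passed it through the females. GST genes were higher in 7 of 20 and lower in 4, and UGT genes higher in 2 of 15 and lower in 4. On HFCF, 12 of 48 were called (4 higher, 8 lower), against 2.63% of all genes (1.3% higher, 1.34% lower). Of the 8, Sult2a1 and Sult2a2 had 1 and 2 reads over the male group and likewise could only be called lower. The HFCF count was 6 without female control replicate 1. Groups did not overlap in 18 of 47 members on HF and 9 of 48 on HFCF, against 12.4% and 5.56% of all genes.

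Several SULT genes were close to absent in males. Sult2a1 had 14421 reads in 4 female HF controls and 4 reads in 6 male HF controls, a female to male ratio of depth-scaled reads of 5580 (95% counting interval 2179 to 20482). Sult2a2 had 15636 and 4 reads, a ratio of 6050 (interval 2363 to 22208). Sult2a3 had 4730 and 0 reads, which is at least 2440-fold higher in females against a floor of 3 reads over the male group. Sult2a5 had 1112 and 0 reads (at least 574-fold), and Sult3a1 1019 and 1 (a ratio of 1577, interval 282 to 62354). A single library, HF control replicate 2, held 8236 of the Sult2a1 reads and 2610 of the Sult2a3 reads. Without it the values were 3190 for Sult2a1, 4378 for Sult2a2, at least 1458 for Sult2a3 and at least 365 for Sult2a5, and without replicate 4 the Sult3a1 ratio was 822. On HFCF the ratios were 616 for Sult2a1 (interval 109.9 to 24378), 2876 for Sult2a2 (796 to 23756), 439 for Sult2a3 (78.2 to 17396) and 64.5 for Sult3a1 (17.3 to 541), with Sult2a5 at least 115-fold higher. Without 1 female HFCF library they were 405 for Sult2a1 (replicate 1 left out) and 33.5 for Sult3a1 (replicate 3 left out). These intervals cover counting error only. Sult2a5 on HF, and Sult2a3, Sult2a5 and Sult3a1 on HFCF, were not called or not tested by edgeR, so their ratios there rest on pooled reads alone. The male reads lay in 2 of 6 libraries for Sult2a1 and in 2 of 6 for Sult2a2. Within females the same genes varied widely: HF control replicate 1 held 1.16 CPM of Sult2a1, 24.2 of Sult2a2 and 2.6004 of Sult2a3, where the other 3 libraries held at least 79.6, 145 and 33.1.

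**Figure D5:**
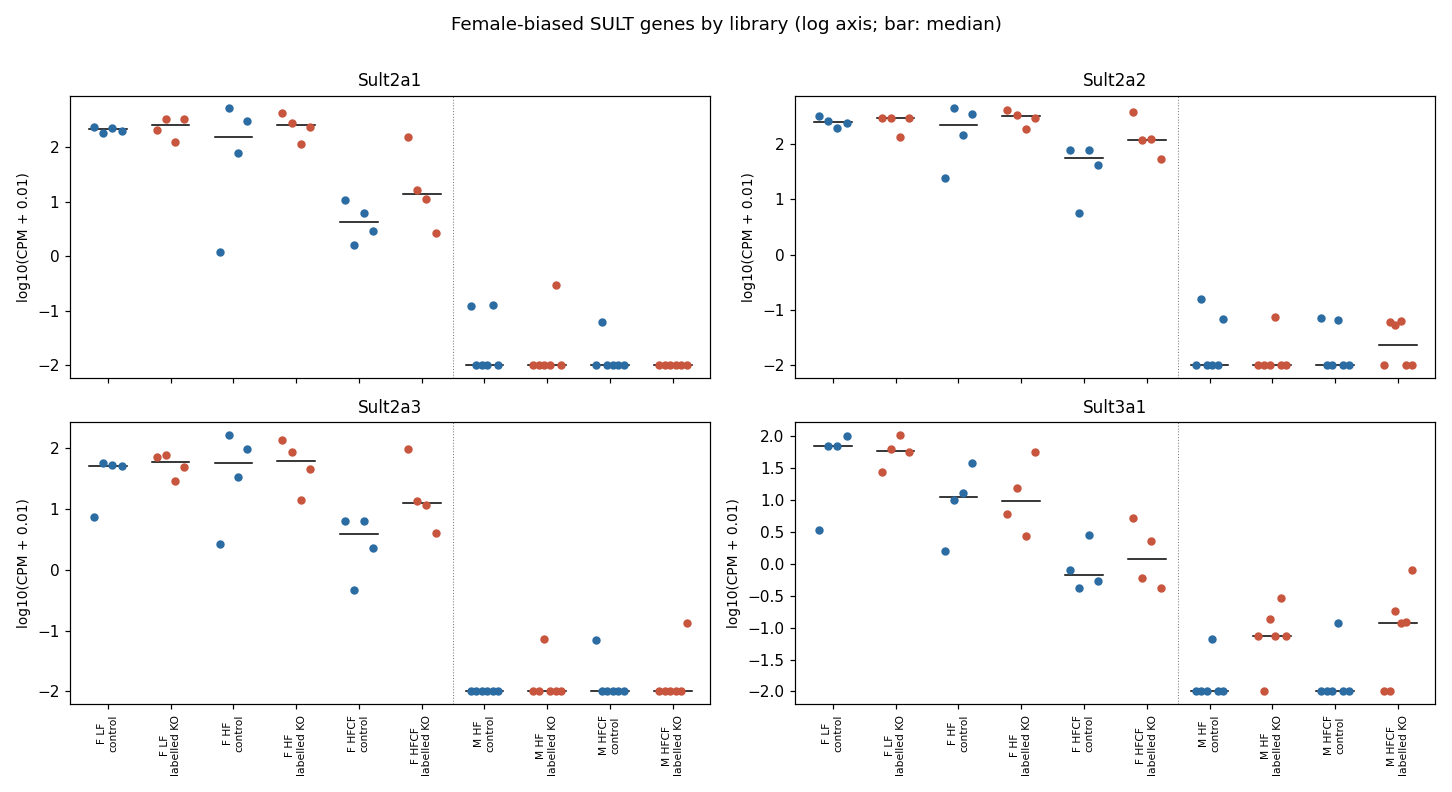
Log10 of CPM plus 0.01 (vertical axes, log scale) of Sult2a1, Sult2a2, Sult2a3 and Sult3a1 in each library (points) of the 10 groups, with controls in blue, labelled knockouts in red, and the group median as a bar; libraries with 0 reads lie at -2. Male libraries lie at or below 0.288 CPM in all 4 panels except 1 HFCF labelled-knockout library at 0.784 CPM of Sult3a1, which is above some female HFCF libraries.

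Sult1 genes were also lower in HF males, in 5 of 5 tests. Sult1a1 measured 346, 393, 462 and 520 CPM in female HF controls, with a male lowest, median and highest of 217, 247 and 308. No male reached the lowest female (log2 fold change -0.77, SE 0.11, adjusted p 0.00128). Sult1e1 was 2.36 ± 0.823 CPM in females and 0.495 ± 0.342 in males, without overlap (-2.24, SE 0.39). Among UGT genes, Ugt1a1 (161 ± 26.5 CPM in females, 89.2 ± 13.4 in males; -0.85, SE 0.12) and Ugt1a6a (-0.88, SE 0.13) were lower in males, and Ugt2b35 was higher (0.45, SE 0.10).

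In HF males 2 of 3 pi-class GST genes were higher and 1 lower, 3 of 7 mu-class genes were higher and 2 of 4 alpha-class genes were higher, with 0 lower in the mu and alpha classes. Gstp1 measured 321, 179, 233 and 132 CPM in females and 424, 448 and 570 (lowest, median, highest) in males. All males exceeded all females (log2 fold change 1.15, SE 0.20, adjusted p 0.00335). Its neighbour Gstp3 went the other way (38.8 ± 3.47 CPM in females and 24.9 ± 2.12 in males; -0.64, SE 0.08), also without overlap. Gstm3 was higher in males (43.9 ± 34.8 and 156 ± 44.5 CPM; 1.83, SE 0.44, and 2.49 without female replicate 1), with overlap between the groups. Gsta1 was higher in males (2.48, SE 0.55, and 3.62 without female replicate 1), without overlap. With 80, 4, 28 and 7 reads in the females, it passed the low-count filter through the males. On HFCF, Gstp1 (0.68, SE 0.08) and Gstp3 (-0.51, SE 0.09) kept their directions and passed the test. Gstm3 had -0.63 (SE 0.17, adjusted p 0.0748) there, and Gstm2 was lower in males (-0.81, SE 0.19, adjusted p 0.0391), a call lost without 8 of 10 libraries, all but male replicate 1 and female replicate 2. Ugt2b38 was higher in HFCF males (0.0628 ± 0.0479 and 1.12 ± 0.802 CPM), without overlap and at low levels. It had 2, 2, 1 and 0 reads in the females, so it passed the low-count filter through the males and could only be called higher. That call held in 3 of 10 fits, being lost or untested in the others.

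Genes that supply the co-substrates, act beside these families or regulate them were counted from lists. The shares of all genes called, given above for each comparison, are repeated here. In HF males, where 8.57% of all genes were higher and 9.88% lower in labelled knockouts, 4 of 14 tested cofactor genes were higher and 2 lower (list median 0.02). Papss2, which makes the sulfate donor PAPS, rose from 166 to 224 CPM (0.43). Gclc, the catalytic subunit of the first step of glutathione synthesis, fell from 433 to 320 CPM (-0.44), and Ugdh, which makes UDP-glucuronic acid, from 211 to 159 CPM (-0.42). Of 8 tested export and reversal genes 6 were lower and 0 higher. Among them Abcc3, which exports conjugates to blood, went from 499 to 274 CPM (-0.87), and in HFCF males from 454 to 256 (-0.82). NRF2 targets outside the families were higher in 1 and lower in 4 of 11, Srxn1, a sulfiredoxin, among the lower (-0.62). Microsomal glutathione transferases and other conjugating enzymes were higher in 4 and lower in 1 of 14. Regulators were higher in 5 and lower in 3 of 16, and CAR and PXR targets higher in 3 and lower in 1 of 8.

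On HFCF, all genes were called higher and lower in 16.9% and 13.8% (control females), 8.44% and 6.01% (labelled-knockout females), 13% and 9.31% (control males) and 21.6% and 20% (labelled-knockout males). In that order, cofactor genes were higher in 0, 2, 0 and 0 of 14 and lower in 5, 3, 4 and 6. The cofactor genes that were higher in labelled-knockout females were Slc35b1 (0.67) and Papss1 (0.70). Export and reversal genes were higher in 2, 4, 1 and 4 of 8 and lower in 0, 0, 2 and 1, and the exporter Abcc4 was higher in all 4 comparisons, with log2 fold changes from 0.56 to 1.48. Microsomal glutathione transferases and other conjugating enzymes were higher in 1, 1, 0 and 0 of 14 and lower in 4, 1, 3 and 4. NRF2 targets were higher in 3, 3, 1 and 4 of 11 and lower in 1, 0, 1 and 1. Srxn1 went from 59.0 to 99.3 CPM in labelled-knockout males (0.75) and from 42.1 to 74.6 in labelled-knockout females (0.83).

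Regulators were lower on HFCF in 8, 6, 7 and 6 of 17 in the same order, with list medians of -0.35, -0.40, -0.13 and -0.22 against -0.02, -0.01, 0.01 and -0.02 over all genes. Nr1i3, which encodes the xenobiotic sensor CAR, was lower in all 4 comparisons (-0.82 to -1.47), as were Ghr, the growth hormone receptor (-0.46 to -0.64), and Nr1h4, the bile acid receptor FXR (-0.23 to -0.62). The 1 regulator that was higher was Nfe2l2, which encodes NRF2, in labelled-knockout males (0.28). CAR and PXR targets outside the families were higher in 2 and lower in 2, 3, 2 and 3 of the 7 or 8 tested. Sex-biased liver genes outside the families were lower in 7 and 4 of 11 in control and labelled-knockout females, 3 of 13 in control males and 8 of 14 in labelled-knockout males, and 1 was higher, in labelled-knockout females. Cux2, a female-predominant transcription factor of the liver, was 77.0 CPM in female and 0.605 in male HF controls, and went from 147 to 12.6 CPM on HFCF in labelled-knockout females (-3.56). In the sex comparison on HF, where 8.52% of all genes were higher in males and 9.58% lower, 6 of 11 NRF2 targets were higher and 0 lower. Other lists moved there too: cofactor genes were higher in 7 and lower in 3 of 14, and regulators higher in 0 and lower in 6 of 17. CAR and PXR targets were higher in 1 and lower in 3 of 8. On HFCF, where 1.3% of all genes were higher in males and 1.34% lower, 1 of 12 NRF2 targets was higher and 0 lower.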

How the data were processed

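RNA from whole liver was sequenced in 48 mice. The deposited tables hold raw read counts per gene, per the file headers. The submitters' processing notes name STAR 2.6.1, HTSeq 0.6.1, DESeq2 and the GRCm38 (mm10) build. Reads were not strand-specific per the labels, and how reads shared between paralogs were assigned is not given in the sources used here. The 11 deposited tables were joined by gene identifier into counts of 29221 genes, and 0 of 1341082 repeated values differed. Totals ran from 15338239 to 22072884 counts per library.

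Genes with low counts were removed with edgeR's filterByExpr. TMM-scaled counts were tested with the quasi-likelihood F test of edgeR 4.0.16 (R 4.3.3, limma 3.58.1), two-sided, within the groups of each comparison. P-values were adjusted by Benjamini-Hochberg over all genes tested, at a threshold of 0.05. The procedure was tested on simulated data with known fold changes. Levels are CPM, counts per 1000000 of the library total after scaling by TMM factors over the 48 libraries. The female to male read ratios use library totals without TMM scaling. There were 13 comparisons of 2 groups and 4 tests of a difference between differences. Alternatives were DESeq2 1.42.0 (its size factors, and its Wald test), no filter, a replicate block and leaving out each library. Members and gene lists were chosen with earlier results of these data known. Values are given for the 3 members per family with the highest level per kb, and for up to 6 called members per direction and comparison with at least 1 CPM in the higher group. Other members named were chosen after their values were seen. Same-numbered libraries were not paired, since in no comparison did every pair correlate above 0.1.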

Additional observations from a re-analysis of the deposited data

Results flagged for a closer look

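In 90 sets of libraries, each 1 leading member in 1 group, 12 had a library far from the rest by Dixon's criterion, where chance gives about 1 in 20. That rate does not apply to 3 of the 12, male sets with reads in 1 library only, where any read is far from the zeros. Female libraries were Gstm1 in HF control replicate 2 (745 CPM), Sult2a2 in LF labelled-knockout replicate 3 (137 CPM), and Sult2a1 (155 CPM) and Ugt2b5 (405 CPM) in HFCF labelled-knockout replicate 1. Male HFCF control replicate 1 was apart for Gsta3 (1398 CPM) and Ugt2b5 (565 CPM). The other male libraries were Gstm1 in HF labelled-knockout replicate 4 (2558 CPM), Sult1a1 in HF control replicate 2 (307.5 CPM) and Ugt2b36 in HFCF labelled-knockout replicate 3 (373 CPM). These 3 were Sult2a2 in HF labelled-knockout replicate 4 (0.0629 CPM), and Sult2a1 in HF labelled-knockout replicate 5 (0.287 CPM) and HFCF control replicate 2 (0.0522 CPM).

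The labelled-knockout difference changed between diets in males for Gsta1 (difference of log2 fold changes 2.41), Gstm3 (1.53) and Gsta2 (1.11), by the test of the difference itself.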

How the results depend on the processing

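Counts of called members are given here for the settings that moved them by more than 1.5 times. DESeq2's Wald test called 10 for the labelled knockout in HFCF males, 1 in HF females, 7 and 3 for HF against LF in control and labelled-knockout females, and 2 for the sex difference of the diet effect. Without the filter, 1 was called for HF against LF in control females. Same-numbered libraries did not pair: correlations of their deviations ran from -0.295 to 0.462. With the replicate block, counts were 1 for HF against LF in control females, 0 and 8 for HFCF against HF in control and labelled-knockout females, and 4 for males against females on HFCF.

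With each library left out in turn, the labelled knockout gave 13 to 23 called members in HF males, 5 to 18 in HFCF males, and 0 to 0 on each female diet. HF against LF gave 0 to 2 in control and 0 to 1 in labelled-knockout females. HFCF against HF gave 19 to 40 and 6 to 33 in control and labelled-knockout females, and 8 to 27 and 26 to 30 in control and labelled-knockout males. Males against females gave 21 to 35 on HF and 6 to 17 on HFCF. The 4 differences of differences gave 3 to 5 (knockout by diet), 0 to 3 and 0 to 0 (knockout by sex on HF and on HFCF) and 0 to 8 (diet by sex). The cause of these shifts was not tested. Of 81 named values, 0 reversed under any of these settings. Calls were lost by 25 of the 81 with the replicate block, by 1 with DESeq2 size factors (Sult1a1 on HFCF in labelled-knockout females) and by 0 with the Wald test or without the filter. Leaving out a library lost the call in 19 of the 162 lowest and highest values. That count covers only the lowest and the highest value of each of the 81, so calls lost in other such fits are not in it. Members under 1 CPM in every group rest on few reads, which limits their comparison at this depth.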
